A study of Mus musculus with 19 samples.

Results

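Expression of 9 monocyte marker genes was examined in retinal microglia that had been sorted without Ly6C-positive cells. The genes were Ccr2, Ly6c2, Plac8, Hp, Ahnak, Ace, Spn, Nr4a1 and Ly6c1. They were taken by gene symbol from the 27299 genes of the deposited table, and all 9 were found. Bulk RNA-seq had been performed on microglia from 6 samples at day 3 after laser-induced choroidal neovascularization (CNV d3) and from 6 samples of untreated mice (control). At CNV d3, 6 focal argon laser burns had been set in each eye, and both groups were analysed at the age of 8 weeks according to the methods and the labels. All mice of both groups were Cx3cr1 GFP/+ according to the methods, a line in which GFP replaces 1 copy of Cx3cr1, whereas the labels give the strain as C57BL/6J. The sorted cells were CD45lo CD11b+ CX3CR1+ Ly6C- Ly6G- in the methods and CD45+ in the labels, and came from the retina without its periphery. The sources used here do not state which animals contributed to a sample, so the spread between samples may be partly technical.

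Monocytes of the mouse blood fall into a Ly6C-high subset, which leaves the bone marrow by means of the chemokine receptor CCR2 and enters inflamed tissue, and a Ly6C-low subset, which patrols vessels and depends on the transcription factor NR4A1. Ly6C is a small surface protein held by a lipid anchor and is encoded by the neighbouring genes Ly6c1 and Ly6c2. Ly6C-high monocytes carry Ccr2, Ly6c2, Plac8, Hp and Ahnak transcripts, and Ly6C-low monocytes carry Ace, Spn and Nr4a1. Microglia are resident macrophages that descend from the yolk sac and normally carry little CCR2 or Ly6C. A sort against Ly6C acts on the protein at the surface, while RNA-seq reads the transcript.

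The CNV d3 samples held 23532260 to 29523018 reads on genes and the control samples 10963178 to 22335233. Values are given as normalized counts, that is, reads per gene scaled by a factor for the size of each library. A single read was worth 0.739 to 0.895 normalized counts at CNV d3 and 1.00 to 1.99 in control, so that low levels were measured more finely at CNV d3. Read counts of replicates differed by more than sampling noise in each group.

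Ly6c1 and Ly6c2 lie on the minus strand of chromosome 15 in GRCm38, 59327 bases apart, with Ly6c1 at chr15:75044018-75048830 and Ly6c2 at chr15:75108158-75111970. Their coding sequences were 393 bases long each in the Gencode M21 transcripts, and 384 bases (97.7%) were identical. The coding part of their longest coding exon is shown because a 50-base read from it can fit both genes. Capitals mark the 3 of 206 bases that differ between Ly6c1 (chr15:75045405-75045610) and Ly6c2 (chr15:75108546-75108751).
Ly6c1: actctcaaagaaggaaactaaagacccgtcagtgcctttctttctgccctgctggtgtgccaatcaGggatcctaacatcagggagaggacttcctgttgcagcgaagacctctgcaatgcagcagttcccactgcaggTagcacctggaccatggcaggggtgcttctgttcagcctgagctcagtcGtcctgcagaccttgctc
Ly6c2: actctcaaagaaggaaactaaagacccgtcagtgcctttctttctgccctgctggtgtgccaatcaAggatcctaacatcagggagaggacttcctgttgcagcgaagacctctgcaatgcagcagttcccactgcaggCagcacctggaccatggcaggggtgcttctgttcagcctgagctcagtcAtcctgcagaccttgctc

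Of all 50-base words in the transcripts of Ly6c2, 14.5% were also present in another gene, and 379 of them were present in Ly6c1. For Ly6c1 the share was 32.8%, with 379 words in Ly6c2 and 195 in Ly6a. Reads that map equally well to several places are left out by the counting tool at its default setting. The levels of Ly6c1 and Ly6c2 therefore rest on the rest of each transcript and are uncertain where the copies are alike. The share was 1.91% for Ccr2 and 3.77% for Ace. It was 0 for Plac8, Hp, Ahnak, Spn and Nr4a1.

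The promoters of the Ly6c genes are shown because the upstream sequences were less alike than the coding sequences. Over the 300 bases from 250 before to 50 after the first listed start site in RefSeq (GRCm38.p6), Ly6c1 (chr15:75048788-75049087, minus strand) and Ly6c2 (chr15:75111922-75112221, minus strand) were 62.3% identical in an alignment with gaps. Of 334 aligned positions, 208 were identical, 58 differed and 68 were gaps, which count against this share. Relative to the sequence they share, the Ly6c1 window starts and ends further upstream than the Ly6c2 window. Some of the gaps can reflect this offset of the windows. The coding sequences aligned without gaps. Capitals mark GAGGAAGT, a sequence of the type bound by PU.1, a transcription factor of macrophages and monocytes.
Ly6c1 promoter: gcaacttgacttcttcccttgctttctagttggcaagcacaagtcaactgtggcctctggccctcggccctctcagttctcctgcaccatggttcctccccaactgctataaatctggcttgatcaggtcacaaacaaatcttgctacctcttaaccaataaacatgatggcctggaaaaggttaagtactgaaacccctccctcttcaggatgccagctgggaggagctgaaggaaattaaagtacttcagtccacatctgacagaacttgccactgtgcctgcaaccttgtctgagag
Ly6c2 promoter: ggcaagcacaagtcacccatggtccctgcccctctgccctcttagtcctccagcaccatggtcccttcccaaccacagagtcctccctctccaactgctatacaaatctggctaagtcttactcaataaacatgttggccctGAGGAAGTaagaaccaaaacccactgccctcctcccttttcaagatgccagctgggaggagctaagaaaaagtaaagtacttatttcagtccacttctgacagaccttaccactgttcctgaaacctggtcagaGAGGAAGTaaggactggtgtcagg

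In the Ly6c2 promoter the sequence began 108 bases before and 27 bases after the start site. The first Ly6c1 promoter did not hold it, and a promoter of a second listed Ly6c1 start held it once. The first Ly6c1 window covers the place of the earlier Ly6c2 match but ends inside the place of the later one. Its lack of the later match therefore shows no difference in sequence. Both strands were searched, and 3.28% of 27025 mouse promoters held at least 1 match. The letters TGANTCA (AP-1), TGACGTCA (CRE) and AAAGGTCA (NBRE, the type of site bound by NR4A1) were found in 7.93%, 1.88% and 1.46% of the promoters. None of these 4 sequences was found in the first listed promoter of Ccr2, Plac8, Ahnak, Ace, Spn or Nr4a1. RefSeq promoters were matched for 8 of the 9 genes, all except Hp.

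Ccr2, Ahnak, Plac8 and Ly6c2, all markers of Ly6C-high monocytes, were higher at CNV d3, and no marker was lower. Hp, Ace, Spn, Nr4a1 and Ly6c1 did not pass the test. Differentially expressed genes (DEG) were genes with a log2 fold change above 1.5 or below -1.5 and an adjusted p under 0.05 in limma on log2(normalized counts + 1). By this rule 4 of the 9 markers increased, against a background of 3.91% of all genes tested. None of the 9 decreased, against 1.07% of all genes. Ccr2, Ahnak and Ly6c2 also had all 6 CNV d3 samples above all 6 control samples, which held for 4.64% of all genes. The same 4 markers were increased on recovered reads with edgeR, which called 3.07% of all genes increased, and with DESeq2, which called 3.33%. In bulk RNA of sorted cells, more cells of a type and more RNA per cell cannot be told apart.

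**Figure D1:**
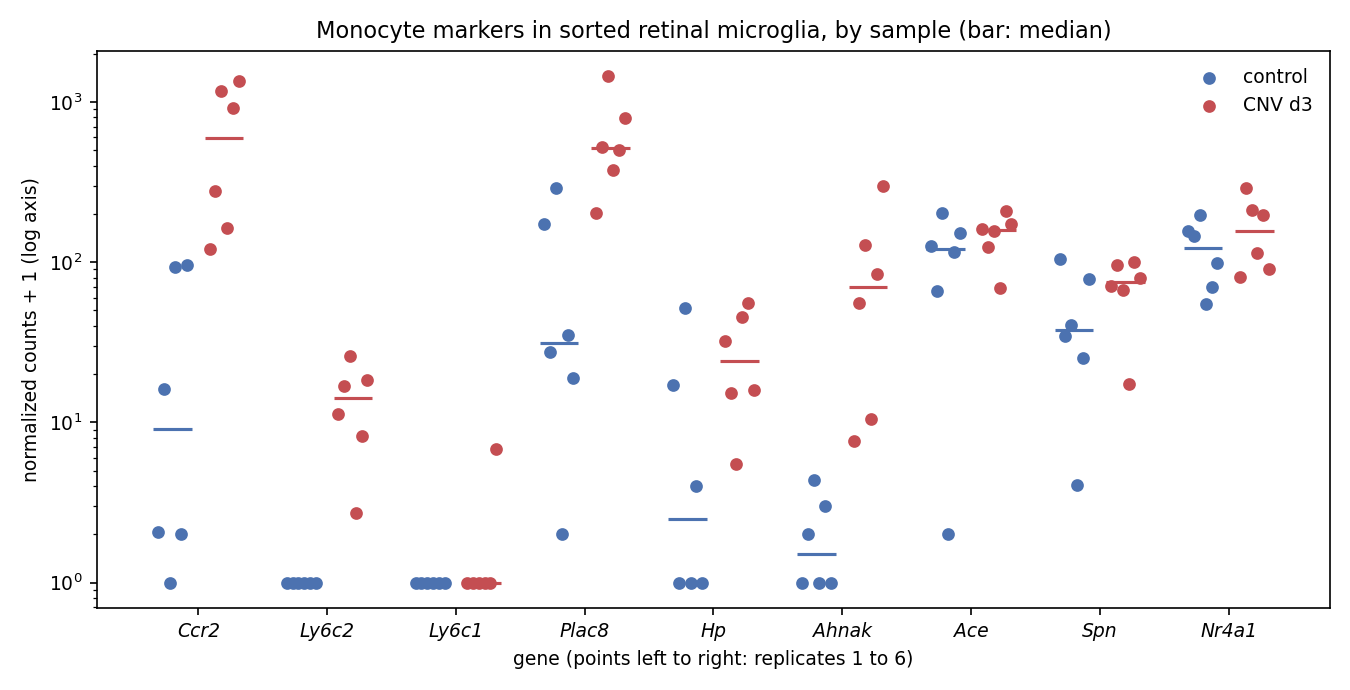
Normalized counts + 1 (log axis) of the 9 genes in each control (blue) and CNV d3 (red) sample, ordered from replicate 1 to 6, with the group median as a bar. Ccr2, Ly6c2 and Ahnak were separated between the groups, Plac8 overlapped by 1 CNV d3 sample, and Ly6c1 had reads in a single sample.

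Ccr2 encodes the receptor for CCL2 and its relatives and lies at chr9:124101950-124113557. It was at 1.07, 15.2, 0, 92.4, 1.00 and 95.3 normalized counts in control 1 to 6 and at 120, 278, 1162, 163, 910 and 1351 in CNV d3 1 to 6. The groups did not overlap, with the lowest CNV d3 sample at 120 and the highest control at 95.3. Controls 4 and 6 stood above the other controls, and CNV d3 replicates 3, 5 and 6 stood above the other treated samples. The log2 fold change was 5.60 ± 1.15 (SE, n = 6 per group, limma adjusted p = 0.00455), the ratio of the group means was 19.4, and the exact permutation test gave p = 0.00216. This p is the smallest that 6 samples against 6 can reach in a two-sided test. On recovered reads the log2 fold change of Ccr2 was 4.33 in edgeR and 4.29 in DESeq2, and that of Plac8 was 2.83 in both.

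Ly6c2, the gene of the antigen used for the sort, had no read in any control sample. It was at 10.3, 15.9, 25.1, 1.73, 7.21 and 17.4 normalized counts in CNV d3 1 to 6, which corresponded to 93 reads in all and 2 to 28 reads per sample. Every CNV d3 sample had reads and replicate 4 had the fewest. The mean of 12.9 was at least 22.8-fold higher than the limit that 0 reads allow in the control group as a whole, 3 reads or 0.567 normalized counts. Limma gave a log2 fold change of 3.50 ± 0.60 (n = 6 per group, adjusted p = 0.00134), which depends on the added pseudocount, since the controls were at 0. The exact permutation test gave p = 0.00216.

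Ly6c1, the second gene of the antigen, is expressed by endothelial and lymphoid cells as well. It had no read in any control sample or in CNV d3 1 to 5, and 7 reads or 5.81 normalized counts in CNV d3 6. The exact permutation test gave p = 1 (n = 6 per group). At this depth no difference in Ly6c1 was detectable.

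Plac8 encodes a small cysteine-rich protein and lies at chr5:100553725-100572245. It was at 172, 26.3, 288, 1.01, 34.1 and 17.9 normalized counts in control 1 to 6 and at 200, 520, 1447, 374, 503 and 792 in CNV d3 1 to 6. Controls 1 and 3 stood above the other controls, and CNV d3 replicate 1 lay below control 3, so the groups overlapped. The log2 fold change was 3.93 ± 0.94 (n = 6 per group, limma adjusted p = 0.0115), and 5 of 6 CNV d3 samples were above the highest control (exact permutation p = 0.00433). This call was lost without control 2 or without CNV d3 2, 3, 5 or 6, each left out alone, where the limma adjusted p was 0.0532, 0.0529, 0.0628, 0.0503 and 0.0610. The log2 fold change in these 5 cases was 3.64 to 3.94.

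Ahnak encodes a very large scaffold protein found beneath the plasma membrane and lies at chr19:8989284-9076914. It was at 0, 1.01, 3.38, 0, 2.01 and 0 normalized counts in control 1 to 6, a total of 6 reads, and at 6.65, 54.4, 126, 9.52, 83.3 and 298 in CNV d3 1 to 6. The groups did not overlap, and CNV d3 replicates 1 and 4 were closest to the controls. By limma, the log2 fold change was 4.83 ± 0.97 (n = 6 per group, limma adjusted p = 0.00374), with an exact permutation p = 0.00216. With so few control reads the size depends on the pseudocount and the tool, from 3.27 with a pseudocount of 5 to 6.29 in edgeR and 6.44 in DESeq2. The exons of Ahnak span 19938 bases, so that its level per length remained low.

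Hp encodes haptoglobin, the plasma protein that binds free haemoglobin, and lies at chr8:109575128-109579172. It was at 16.1, 0, 50.7, 0, 3.01 and 0 normalized counts in control 1 to 6 and at 31.0, 14.2, 4.47, 44.1, 54.5 and 15.0 in CNV d3 1 to 6. The groups overlapped, with control 3 above all CNV d3 samples but replicate 5. Between the groups the log2 fold change was 2.48 ± 1.10 (n = 6 per group, limma adjusted p = 0.169), with an exact permutation p = 0.0563. Without control 3 the log2 fold change was 3.22 and the limma adjusted p 0.0419.

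The markers of Ly6C-low monocytes had reads in every sample of both groups, and their ranges overlapped. Ace encodes angiotensin-converting enzyme (chr11:105967945-105989964) and shares exonic positions with Gm11651, from which its reads could not be told apart by strand. It was at 126, 64.8, 202, 1.01, 114 and 151 normalized counts in control 1 to 6 and at 159, 124, 156, 67.5, 207 and 172 in CNV d3 1 to 6. Ace had a log2 fold change of 1.17 ± 0.89 (95% interval -0.73 to 3.07, n = 6 per group, limma adjusted p = 0.463). Control 4 was lowest, and the difference was 0.18 without it.

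Spn encodes CD43, a heavily glycosylated surface protein of leukocytes (chr7:127132232-127137823). It was at 103, 33.4, 39.4, 3.04, 24.1 and 77.5 normalized counts in control 1 to 6 and at 70.2, 95.3, 66.2, 16.4, 98.5 and 78.1 in CNV d3 1 to 6. In each group replicate 4 was lowest. The log2 fold change was 0.96 ± 0.73 (95% interval -0.60 to 2.53, limma adjusted p = 0.463) and 0.36 without control 4.

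Nr4a1 encodes an orphan nuclear receptor that is also induced as an immediate early gene (chr15:101254269-101274795). It was at 156, 145, 197, 53.8, 69.3 and 97.3 normalized counts in control 1 to 6 and at 79.8, 287, 209, 113, 197 and 88.9 in CNV d3 1 to 6. CNV d3 replicates 2 and 3 lay above the highest control and the other 4 within the control range. The log2 fold change was 0.42 ± 0.41 (95% interval -0.45 to 1.29, limma adjusted p = 0.557). The exact permutation tests of Ace, Spn and Nr4a1 gave p = 0.284, 0.253 and 0.342 (n = 6 per group).

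**Figure D2:**
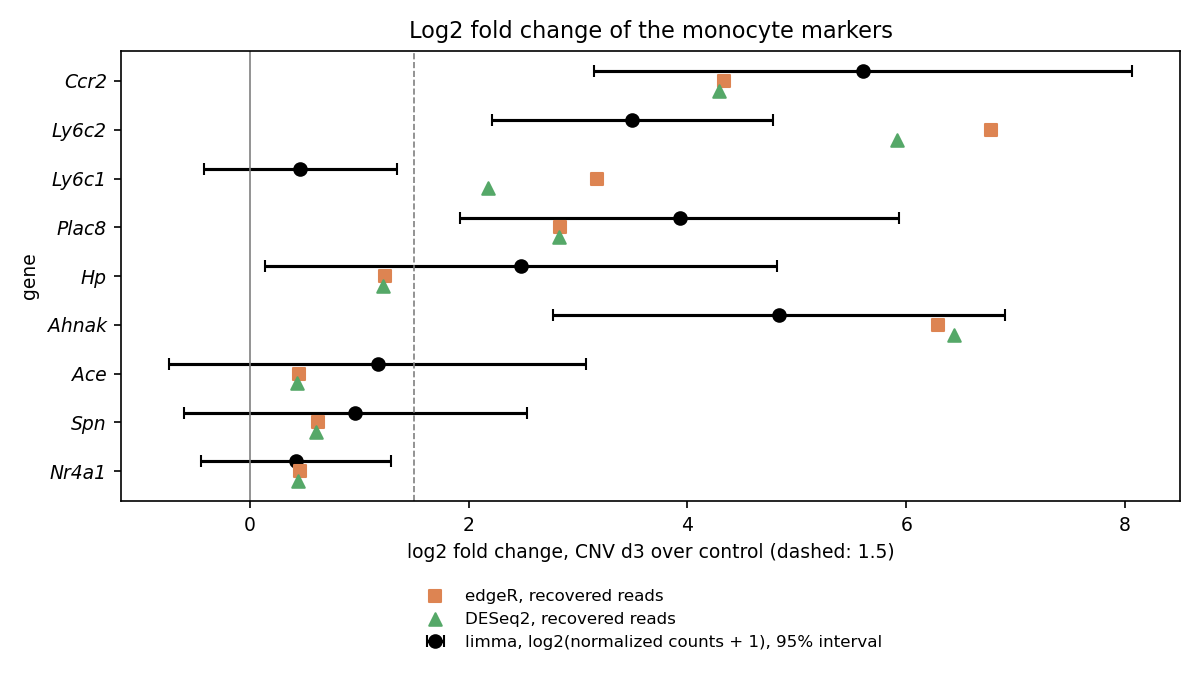
Log2 fold change of CNV d3 over control by gene, from limma on log2(normalized counts + 1) with its 95% interval (black) and from edgeR (orange squares) and DESeq2 (green triangles) on recovered reads. Values of Ly6c2 and Ly6c1, which had no control reads, depend on the constants each tool adds, and the intervals of Ace, Spn, Nr4a1 and Ly6c1 include 0.

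The CNV d3 samples differed widely in the markers of Ly6C-high monocytes. The coefficient of variation (CV, the SD divided by the mean) among the 6 CNV d3 samples was 1.13 for Ahnak, 0.818 for Ccr2, 0.713 for Hp, 0.689 for Plac8 and 0.638 for Ly6c2. It was 0.505 for Nr4a1, 0.419 for Spn and 0.323 for Ace, and without CNV d3 4 it was 0.179 for Spn and 0.185 for Ace. Counting error alone would give a CV of 0.0356 for Ccr2, 0.0365 for Plac8, 0.0934 for Ahnak, 0.173 for Hp and 0.254 for Ly6c2. The ratio of the highest to the lowest sample was 44.9 for Ahnak, 11.2 for Ccr2 and 7.23 for Plac8, against 3.07 for Ace and 3.59 for Nr4a1. A wide spread was not particular to CNV d3. In control, where the means were lower, the CV was 1.73 for Hp, 1.36 for Ccr2, 1.30 for Ahnak and 1.28 for Plac8. It was 0.787 for Spn, 0.635 for Ace and 0.462 for Nr4a1 there.

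Since variation depends on level, each gene was set beside the genes within 2-fold of its CNV d3 mean. Among the 4216 genes near Ccr2 the median CV was 0.163, and 0.190% had a larger CV than Ccr2. Near Plac8 the share with a larger CV was 0.355%, and near Ahnak it was 0.607%. The CV of Plac8 was 0.455 without CNV d3 3. The shares were 8.79% for Nr4a1, 32.6% for Hp, 36.1% for Ace and 40.0% for Spn. Ly6c2 was not unusual for its low level, with 63.1% of the near genes at a larger CV and a median of 0.750. Among the 9684 genes with a CNV d3 mean of at least 100 normalized counts, 0.454% exceeded Ccr2 and 0.743% exceeded Plac8.

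The order of the CNV d3 samples was alike for some markers. Replicates 3 and 6 held the highest pair of values for Ccr2, Plac8, Ahnak and Ly6c2, and replicates 1 and 4 the lowest pair for Ccr2, Plac8 and Ahnak. On the log2 scale, Ccr2 differed from the CNV d3 median by -2.05 in replicate 1 and by 1.42 in replicate 6. Hp had another order, with replicates 5 and 4 highest and replicate 3 lowest. Ace and Spn were highest in replicate 5 and lowest in replicate 4, and Nr4a1 was highest in replicate 2.

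**Figure D3:**
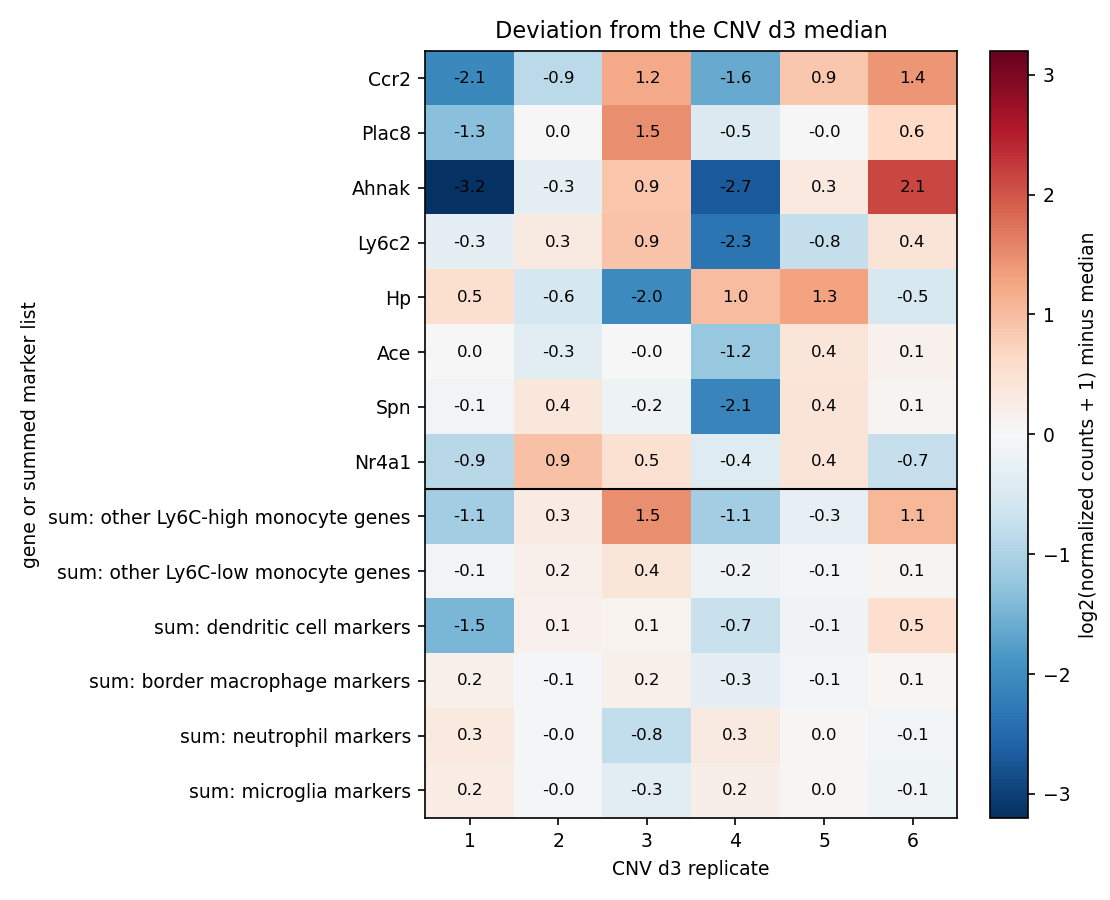
Deviation of each CNV d3 replicate from the CNV d3 median, as log2(normalized counts + 1), for 8 markers (above the line) and for summed marker lists (below it), with red above and blue below the median. Ccr2, Plac8, Ahnak and the summed other Ly6C-high monocyte genes were above the median in replicates 3 and 6 and below it in replicates 1 and 4, whereas Hp was below it in replicate 3.

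Further transcripts of Ly6C-high monocytes were higher at CNV d3. Of 20 such genes besides the markers above, 7 increased and none decreased, against 3.91% and 1.07% of all genes tested. Among all genes with a mean of at least 10 normalized counts, 714 of 13614 increased and 264 decreased. These shares apply to the lists below as well. The median log2 fold change of the 20 genes was 2.29, against 0.15 for all genes tested. Their summed level was 3482 to 5508 normalized counts in control and 9310 to 56605 at CNV d3, of which Fn1 alone gave 3763 to 47390 at CNV d3. Fn1, the gene of fibronectin, had a mean of 22.1 normalized counts in control and 19206 at CNV d3 (log2 fold change 10.70 ± 1.04, limma adjusted p = 2.03e-05). Emilin2, an extracellular matrix glycoprotein, rose by 4.72 ± 1.00 (adjusted p = 0.00558), and S100a6, a calcium-binding protein, by 4.15 ± 1.02 (adjusted p = 0.0137).

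Itgb7, the integrin beta 7 chain, was at 0.898 normalized counts on average in control and at 48.8, 267, 619, 71.8, 280 and 574 in CNV d3 1 to 6. Replicates 3 and 6 were highest and 1 and 4 lowest, as for Ccr2. For Itgb7 the log2 fold change was 7.12 ± 0.80 (limma adjusted p = 6.18e-05). Chil3, which is abundant in Ly6C-high monocytes of the blood, had no control reads and a mean of 4.95 normalized counts at CNV d3 (limma adjusted p = 0.0833).

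Of 18 further genes of Ly6C-low monocytes, 3 increased and none decreased (median log2 fold change 1.20), against 3.91% and 1.07% of all genes tested. Cd36, a scavenger receptor also used by other macrophages, was at 44.0 to 143 normalized counts in control and at 1695 to 3965 at CNV d3, a log2 fold change of 5.03 ± 0.30 (limma adjusted p = 1.04e-06). Itgal, the integrin alpha L chain, rose by 2.30 ± 0.32 (adjusted p = 0.000307), and Cd300ld by 1.81 ± 0.51 (adjusted p = 0.0276). Treml4 and Cd300e, which mark Ly6C-low monocytes more closely, did not pass the test (adjusted p = 0.203 and 0.425). The summed level of the 18 genes was 15523 to 20592 in control and 21519 to 31394 at CNV d3.

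Of the 4 ligands of CCR2 examined, Ccl2 and Ccl8 increased. Ccl2 was at 197 to 1201 normalized counts in control and at 1521 to 6105 at CNV d3, with replicate 3 highest (log2 fold change 2.64 ± 0.43, limma adjusted p = 0.000934). Ccl8 had no control reads and a mean of 5.72 at CNV d3 (adjusted p = 0.0223). Ccl12 was the most abundant of the 4 by mean normalized counts not corrected for length, and its log2 fold change of 1.26 ± 0.35 did not reach 1.5 (adjusted p = 0.0270). Ccl7 did not pass (1.93 ± 0.72, adjusted p = 0.101).

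Nr4a1 was also viewed beside 15 other NR4A and immediate early genes, which are induced rapidly by stimulation. Fos, Nr4a2 and Fosb increased and none decreased (median log2 fold change 0.68). Nr4a2 was at 0 to 1.13 normalized counts in control and at 29.6, 37.6, 4.47, 21.6, 0.801 and 31.6 in CNV d3 1 to 6 (log2 fold change 3.49 ± 0.81, limma adjusted p = 0.00999). Its order differed from that of Ccr2, with replicates 3 and 5 lowest. Fos rose by 4.64 ± 1.15 (adjusted p = 0.0144) and Fosb by 3.31 ± 0.70 (adjusted p = 0.00535).

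None of 14 other Ly6 family genes passed in either direction. Ly6a, which shares 50-base words with Ly6c1, was at 189 to 1230 normalized counts in control and at 616 to 2433 at CNV d3 (log2 fold change 1.41 ± 0.47, limma adjusted p = 0.0630). Ly6e was at a mean of 50648 in control and 61537 at CNV d3 (adjusted p = 0.148).

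Markers of the sort and of other cells were measured in the same samples. Beside the counts of each list, 3.91% of all genes tested increased and 1.07% decreased. Ptprc (CD45) had a log2 fold change of 0.17 ± 0.10, Itgam (CD11b) of 0.72 ± 0.09 and Cx3cr1 of -0.84 ± 0.09, and none reached 1.5 (limma adjusted p = 0.321, 9.45e-05 and 3.88e-05). Ly6g was looked up as well but was absent from the deposited genes, so no level or change could be given. The methods state that genes without reads in any sample were removed. Whether Ly6g was absent for this reason was not tested. Of 12 microglia markers, P2ry12 decreased (-1.65 ± 0.15, limma adjusted p = 1.01e-05) and none increased. None of the 12 log2 fold changes was positive (median -0.53). Slc2a5 (-1.46 ± 0.15), Gpr34 (-1.15 ± 0.16) and Tmem119 (-1.06 ± 0.13) fell without reaching 1.5 (limma adjusted p = 3.44e-05, 0.000265 and 0.000136). Their summed level was 1369300 to 1539540 in control and 787759 to 1181690 at CNV d3, lowest in replicates 3 and 6. All 12 had reads at CNV d3. Tmem119 and Sall1 help to define the labelled cell type. Their means were 107362 and 11176 normalized counts in control and 52910 and 7878 at CNV d3.

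Of 9 listed dendritic cell markers, 6 increased and none decreased (median log2 fold change 3.90), against 3.91% and 1.07% of all genes tested. Their summed level was 365 to 1431 normalized counts in control and 1169 to 4666 at CNV d3. Siglec1, 1 of the 6, alone gave a mean of 383 of the summed 944 in control and 1812 of 2970 at CNV d3. Cd209a, a lectin also present on cells derived from monocytes, had no control reads and was at 0.739, 273, 379, 4.33, 167 and 510 in CNV d3 1 to 6. Replicates 1 and 4 were near the level of a single read or little above it, and these were also the lowest samples for Ccr2. Kmo, Cd209a, Flt3 and Clec10a had log2 fold changes of 6.82 ± 0.86, 6.05 ± 1.32, 5.04 ± 0.84 and 4.23 ± 1.14 (limma adjusted p = 0.000135, 0.00694, 0.00104 and 0.0223). Clec9a, Zbtb46 and Batf3 did not pass (adjusted p = 0.949, 0.502 and 0.557). The part of these cells in the levels of Ccr2, Plac8, Ahnak and Ly6c2 was not tested.

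Of 10 neutrophil markers measured, Mmp9 increased (2.90 ± 0.85, limma adjusted p = 0.0354), while S100a8 and S100a9 were at means of 0.503 and 0.133 normalized counts at CNV d3. The neutrophil sum was 9051 to 11562 in control and 4979 to 10773 at CNV d3, nearly all of it Csf3r, which microglia also express. Of 8 border macrophage markers, Cbr2 increased (4.30 ± 1.18, limma adjusted p = 0.0251) and 5 had a positive log2 fold change. Mrc1 (-1.44 ± 0.72) and Lyve1 (-0.90 ± 1.40) were lower and did not pass (limma adjusted p = 0.233 and 0.671). The summed border macrophage level was 2536 to 4369 in control and 3212 to 4370 at CNV d3. None of 8 endothelial, 7 T and NK cell and 2 B cell markers measured passed in either direction. Their summed levels were 500 to 990 and 463 to 970 (endothelial), 0 to 14.1 and 2.96 to 29.5 (T and NK cells), and 932 to 1852 and 755 to 1566 (B cells) in control and at CNV d3. The B cell sum was nearly all Cd79b. Among the endothelial markers, Pecam1 fell (-1.46 ± 0.40) and Kdr rose (0.98 ± 0.30) without reaching 1.5 (limma adjusted p = 0.0236 and 0.0452).

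The level of the markers relative to each other was compared as normalized counts per kb of exon. At CNV d3 the order from high to low was Plac8 (mean 402), Ccr2 (98.2), Nr4a1 (46.3), Ace (27.9), Hp (16.9), Spn (15.1), Ahnak (4.83), Ly6c2 (4.72) and Ly6c1 (0.578). Plac8 was above Ccr2 in 6 of 6 samples, by 2.34 ± 0.88 (SD) on the log2 scale, and Spn was above Ahnak in 6 of 6, by 2.49 ± 1.82. The other neighbours in this order down to Ly6c2 did not differ beyond the spread over the samples. The lowest Ccr2 sample, at 17.8 per kb, exceeded the highest Ly6c2 sample, at 9.14 per kb.

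In control the order was Plac8 (56.5), Nr4a1 (34.1), Ace (20.8), Spn (9.99), Hp (7.24), Ccr2 (5.05) and Ahnak (0.0535), with Ly6c2 and Ly6c1 at 0. None of the neighbours from Plac8 to Spn differed beyond their spread. By the mean, Ccr2 was thus the sixth gene in control and the second at CNV d3. The place of Plac8 at the top in control rested on controls 1 and 3, and it was above Nr4a1 in 3 of 6 control samples, with a mean log2 difference of -0.69.

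**Figure D4:**
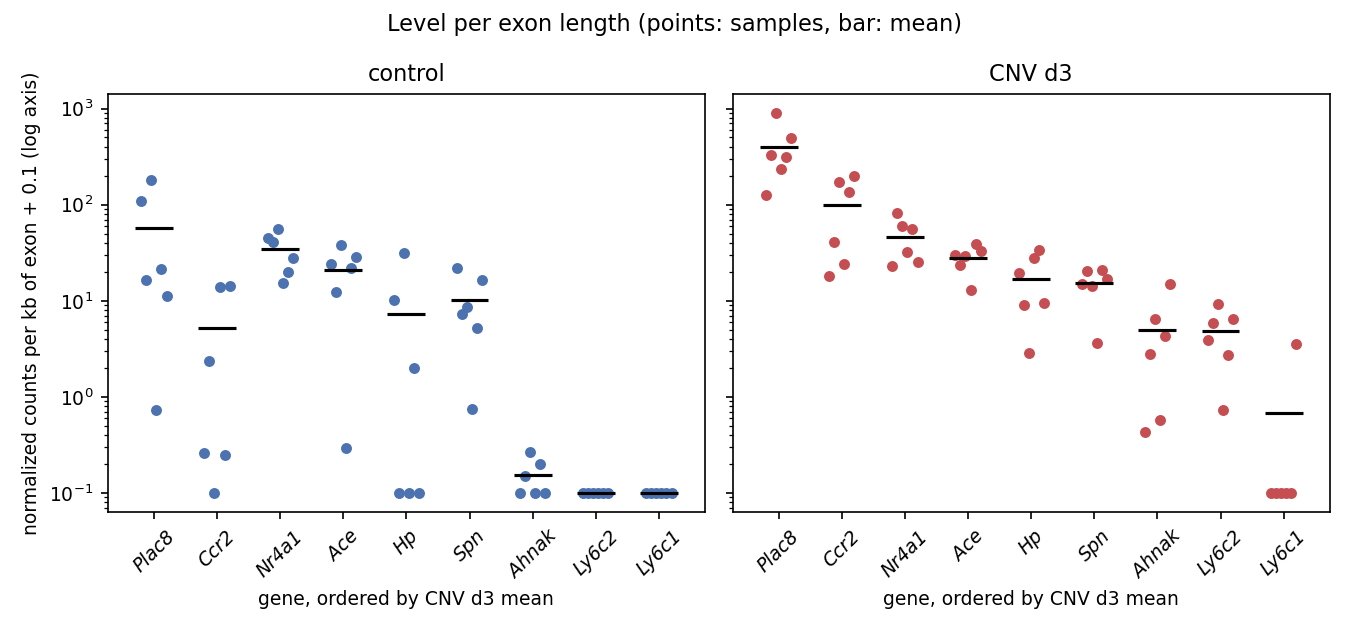
Normalized counts per kb of exon, with 0.1 added for the log axis, for the 9 genes in each control (left, blue) and CNV d3 (right, red) sample, ordered by the CNV d3 mean, with the group mean as a bar. Plac8 had the highest mean in both groups, in control resting on replicates 1 and 3, and Ccr2 had a mean of 5.05 per kb in control and 98.2 at CNV d3.

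The genes whose profile over the 6 CNV d3 samples was most like that of Ccr2 were Rtel1, Ifitm1, Itgb7, Spon1 and Ttk. Likeness was measured as the root mean square difference of log2(normalized counts + 1) after centring each gene, among 9672 genes with reads in all 6 samples and a mean of at least 100. The difference was 0.44, 0.49, 0.50, 0.53 and 0.55 for these genes, against a median of 1.40 over all candidates. For Ly6c2 the closest genes were Dusp5, Ccr1, Zmynd15, Hpse and Cp, at 0.32, 0.36, 0.44, 0.44 and 0.45 against a median of 1.07 over 9673 candidates. The profile of Ly6c2 rests on 2 to 28 reads per sample and is correspondingly less certain. These are descriptions over 6 samples that share their libraries.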

How the data were processed

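RNA of sorted retinal microglia had been converted to cDNA with an ultra-low-input kit and sequenced as single reads of 50 bases. According to the methods and the submitters' processing notes, the authors mapped reads with STAR (2.7.2b) to GRCm38.p6 with Gencode annotation, merged the mapped files sample by sample, obtained gene counts from featureCounts (1.6.4, default settings, without strand) and normalized with DESeq2 (1.22.2) in R (3.5.3). The deposited signal is the read count divided by the size factor of the sample. The table also holds group means and the authors' fold changes and adjusted p-values, which were not used. All 6 controls and CNV d3 4 are listed in 2 parts and were each taken as 1 sample. The groups and replicate numbers come from the labels.

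All values (100%) were whole multiples, within 0.001, of the value of 1 read, so that reads could be recovered. The main test was limma (3.58.1, with trend, R 4.3.3) on log2(normalized counts + 1) over all 27299 genes without filter, two-sided, with Benjamini-Hochberg adjustment. It called 1068 genes increased and 293 decreased. On recovered reads, edgeR (4.0.16, quasi-likelihood, TMM) called 839 genes increased and DESeq2 (1.42.0) 908. Single genes were also tested by an exact two-sided permutation test over all 924 labelings. Scripts were tested on simulated data. The 9 genes, the marker lists and the rules were chosen with earlier results of these data known, and the comparison with genes within 2-fold of the mean was added after the values were seen. The text names the 9 genes, at most 4 of the largest DEG of each list with the defining markers, and the 5 genes closest to Ccr2 and Ly6c2 in profile. Other genes were named after their values were seen. Positions and lengths come from Gencode M21, in which 27238 genes were matched by identifier, and promoters from RefSeq. Intervals and limits for counts of 0 cover counting error only.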

Additional observations from a re-analysis of the deposited data

Results flagged for a closer look

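A sample standing apart from the other 5 of its group by Dixon's test was looked for among the 9 genes in each group, in 16 sets of 6 values. For normally distributed values about 1 in 20 sets would pass. These values were counts on the plain scale, some of them 0, so the chance rate here is not known. Hp was at 50.7 normalized counts in control 3, with a gap to the nearest control of 0.682 of the whole range. Ly6c1 was at 5.81 normalized counts in CNV d3 6, the only sample with reads of this gene. With the other 5 samples at 0 its gap is 1 whatever the value, so this set says nothing against chance.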

How the results depend on the processing

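Increases of Ccr2, Ly6c2 and Ahnak kept their direction and their call in every alternative that could test them, which covered other tests, scalings, pseudocounts, thinning to 10963178 reads and leaving out each sample. Requiring at least 10 normalized counts in at least 6 samples left 12753 genes and removed Ly6c2, Ahnak and Ly6c1, so that 2 of the markers were increased. Leaving out each sample in turn gave 3 to 5 increased markers, with Plac8 lost in 5 cases (highest adjusted p 0.0628) and Hp gained without control 3. It gave 829 to 1041 increased and 237 to 358 decreased genes. The number of decreased genes, 293, was 572 with DESeq2 and 489 with limma voom, while none of the 9 markers was called decreased in any alternative. TMM or library totals moved the median of all genes by 0.02 and 0.03 on the log2 scale. The CVs of Spn and Ace were 0.179 and 0.185 without CNV d3 4, that of Plac8 was 0.455 without CNV d3 3, and that of Ccr2 stayed between 0.685 and 0.964 when single samples were left out. With the longest transcript as length, the order at CNV d3 was the same, and Nr4a1 then differed from Ace beyond the spread. The causes of these changes were not tested, apart from the filter.

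Samples with the same number did not deviate together (correlations -0.01 to 0.05 over genes, 1 of 6 closest to its own number). No pairing by number was thus detected, but a pairing that leaves no such correlation would be missed. With a replicate block, 921 genes increased and 215 decreased, 4 of the markers increased, and Ccr2 had an adjusted p of 0.00876. Ly6c2 and Ly6c1 rest on the fewest reads of the 9 genes, 93 and 7 at CNV d3, and thinning gave 2.61 for Ly6c2 (limma adjusted p = 0.00761).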

Other observations

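Nr4a3, the third member of the NR4A family, had no control reads and was at 0.739, 10.9, 66.2, 0, 1.60 and 17.4 normalized counts in CNV d3 1 to 6, so that replicate 3 was highest, while Nr4a2 was at 4.47 there, with only replicate 5 lower. The difference between the groups in Nr4a3 did not pass the test (limma adjusted p = 0.0573). Lyve1, a marker of border macrophages, was at 564 normalized counts in control 3, which was also the highest control for Plac8, Hp, Ahnak, Ace and Nr4a1, and had no reads in the other controls.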
